A study of Rattus norvegicus with 12 samples.

Results

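The genes described here are the matrix metalloproteinases (Mmp), the tissue inhibitors of metalloproteinases (Timp), the secreted metalloproteinases with thrombospondin repeats (Adamts) and the related proteins that lack a protease domain (Adamtsl). They were taken by symbol, as every gene whose name is 1 of these prefixes followed by a number and at most 1 letter. This gave 49 of the 32545 genes in the table, made up of 22 Mmp, 18 Adamts, 5 Adamtsl and 4 Timp genes. RNA had been sequenced from cultured rat heart cells in 4 groups of 3 biological replicates. GS diff2 are GS cells kept in CMM medium with added EGM2 solution, labelled as cardiomyocyte and endothelial differentiation. GS diff1 are GS cells kept in CMM medium alone, labelled as cardiomyocyte differentiation. GS are undifferentiated cells with the genotype label "GS cells, immortalized", made from rat cardiac fibroblasts by viral overexpression of Sall4 and Gata4, and GS diff1 and GS diff2 carry the same factors. RCF are the parental rat cardiac fibroblasts, labelled WT. The treatment text that names the viral overexpression stands on every sample, RCF included, and RCF are taken here as untreated from their genotype label, their title and the design text. The labels and the design text used here do not give the promoter that drives the viral genes or the time in each medium. They also do not say whether GS cells are a clone. Immortalization, the factors and time in culture therefore cannot be told apart between GS and RCF. The same holds for the medium and the time in it among the GS-derived groups.

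Matrix metalloproteinases and ADAMTS proteases are zinc enzymes that cut collagens, proteoglycans, elastic fibres and other proteins around the cell. Most are made as inactive precursors, and TIMP proteins block the active site of the mature enzymes. In the heart, fibroblasts are a main source of both the proteases and the matrix they cut, and the balance of proteases and TIMPs is known for its part in scarring and remodelling. Counts of mRNA do not measure the activation or the activity of any of these enzymes.

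The 12 libraries held 16255682 to 23117864 counts. Sall4 was at 246.1 ± 8.58 CPM (counts per 1000000 counts, scaled with TMM factors; SD, n = 3) in GS and had 0 counts in all RCF libraries. It had 68.9, 67.5 and 72.4 CPM in GS diff2 and 223.8, 221.8 and 230.7 CPM in GS diff1. Gata4 had 281, 286 and 289 CPM in GS diff2 and 487, 498 and 500 CPM in GS diff1. In GS it had 603, 589 and 593.5 CPM, and in RCF 203, 206 and 210 CPM. Both genes were called lower in each medium than in GS, and in GS diff2 than in GS diff1. Reads of the viral and the rat copy cannot be separated, and the part of these levels in the results below was not tested. The summed level of 10 fibroblast markers, most of it collagen mRNA, was 23400 to 23740 CPM in GS diff2, 46060 to 47490 CPM in GS diff1, 37950 to 41090 CPM in GS and 36010 to 39170 CPM in RCF. Within that list, Dcn, a defining fibroblast proteoglycan, averaged 0.419 CPM in GS diff2, 0.0704 CPM in GS diff1, 1.00 CPM in GS and 32.8 CPM in RCF, and Tcf21 had 0 counts in GS diff2. Other markers of the list ran the other way, with Pdgfra 7.07-fold, Col3a1 2.14-fold and Thy1 1.22-fold higher in GS than in RCF. Of all 10, 3 were higher and 6 lower in GS against RCF, 2 and 6 in GS diff1 against GS, 1 and 6 in GS diff2 against GS, and 3 and 5 in GS diff2 against GS diff1. Among all tested genes, the shares called higher and lower were 35.0% and 36.3%, 32.0% and 32.3%, 33.3% and 33.7%, and 32.1% and 31.5%, in the same order. Summed levels of 7 endothelial markers stayed between 13.7 and 23.2 CPM in all libraries, and most of the sum was Tek, at 11.3 to 19.6 CPM. Of 3 tested markers, 2 were higher and 0 lower in GS diff1 against GS (Tie1 2.82-fold, Tek 1.32-fold). In GS diff2 against GS, 1 was higher and 0 lower. Vwf had 3.53, 3.985 and 3.45 CPM in GS diff2 and 1.61, 1.27 and 1.22 CPM in GS. Summed levels of 8 cardiomyocyte markers were 58.3 to 64.2 CPM in GS diff2, 101.7 to 109.3 CPM in GS diff1, 17.0 to 22.8 CPM in GS and 15.8 to 17.0 CPM in RCF. Most of this was Mybpc3 and Tnnt2. Mybpc3 averaged 95.6 CPM in GS diff1, 16.1 in GS and 0 in RCF, and had 26.1, 22.25 and 26.8 CPM in GS diff2. Tnnt2 averaged 7.67 CPM in GS diff1, 1.96 in GS and 15.1 in RCF, and had 34.4, 33.6 and 34.3 CPM in GS diff2. Myh6, Myh7 and Nppa had at most 1.01 CPM in any library. The 5 smooth muscle markers summed to 394.2 to 400.4 CPM in GS diff2, 2498 to 2542 CPM in GS diff1, 594.1 to 626.8 CPM in GS and 792.0 to 810.8 CPM in RCF. The 5 mesothelial markers summed to 107.3 to 110.7 CPM in GS diff2, 36.5 to 39.8 CPM in GS diff1, 42.4 to 45.8 CPM in GS and 57.4 to 62.0 CPM in RCF. Of these, Msln was 15.3-fold higher in GS diff2 than in GS, while the other 4 were lower and Upk3b was at 0 counts in GS diff2. In these bulk samples, fewer cells of a type and less RNA per cell cannot be told apart, and the part of the marker differences in the results below was not tested.

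Of the 49 genes, 41 had at least 1 count and 36 passed the filter on low counts and were tested. Mmp1, Mmp1b, Mmp7, Mmp8, Mmp11, Mmp20, Mmp27 and Adamts18 had 0 counts in all 12 libraries, where 3 counts per library correspond to 0.127 to 0.193 CPM. Timp4, Mmp21, Mmp28, Adamts16 and Adamts20 had counts but were too low to test. A gene can pass the filter through the group where it is high, so counts over the tested genes are descriptions and do not stand for all 49. Tests used edgeR's quasi-likelihood F-test, with p-values adjusted by Benjamini-Hochberg over all 14399 tested genes. The p-values measure differences against the spread between libraries of a group. The sample titles number the replicates and name no fibroblast donor or separate derivation of GS cells. Whether the p-values cover the spread between donors or derivations is therefore not known. A gene is called, and said to rise or fall, at an adjusted p under 0.05. Log2 fold changes are given ± their standard error.

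**Figure D1:**
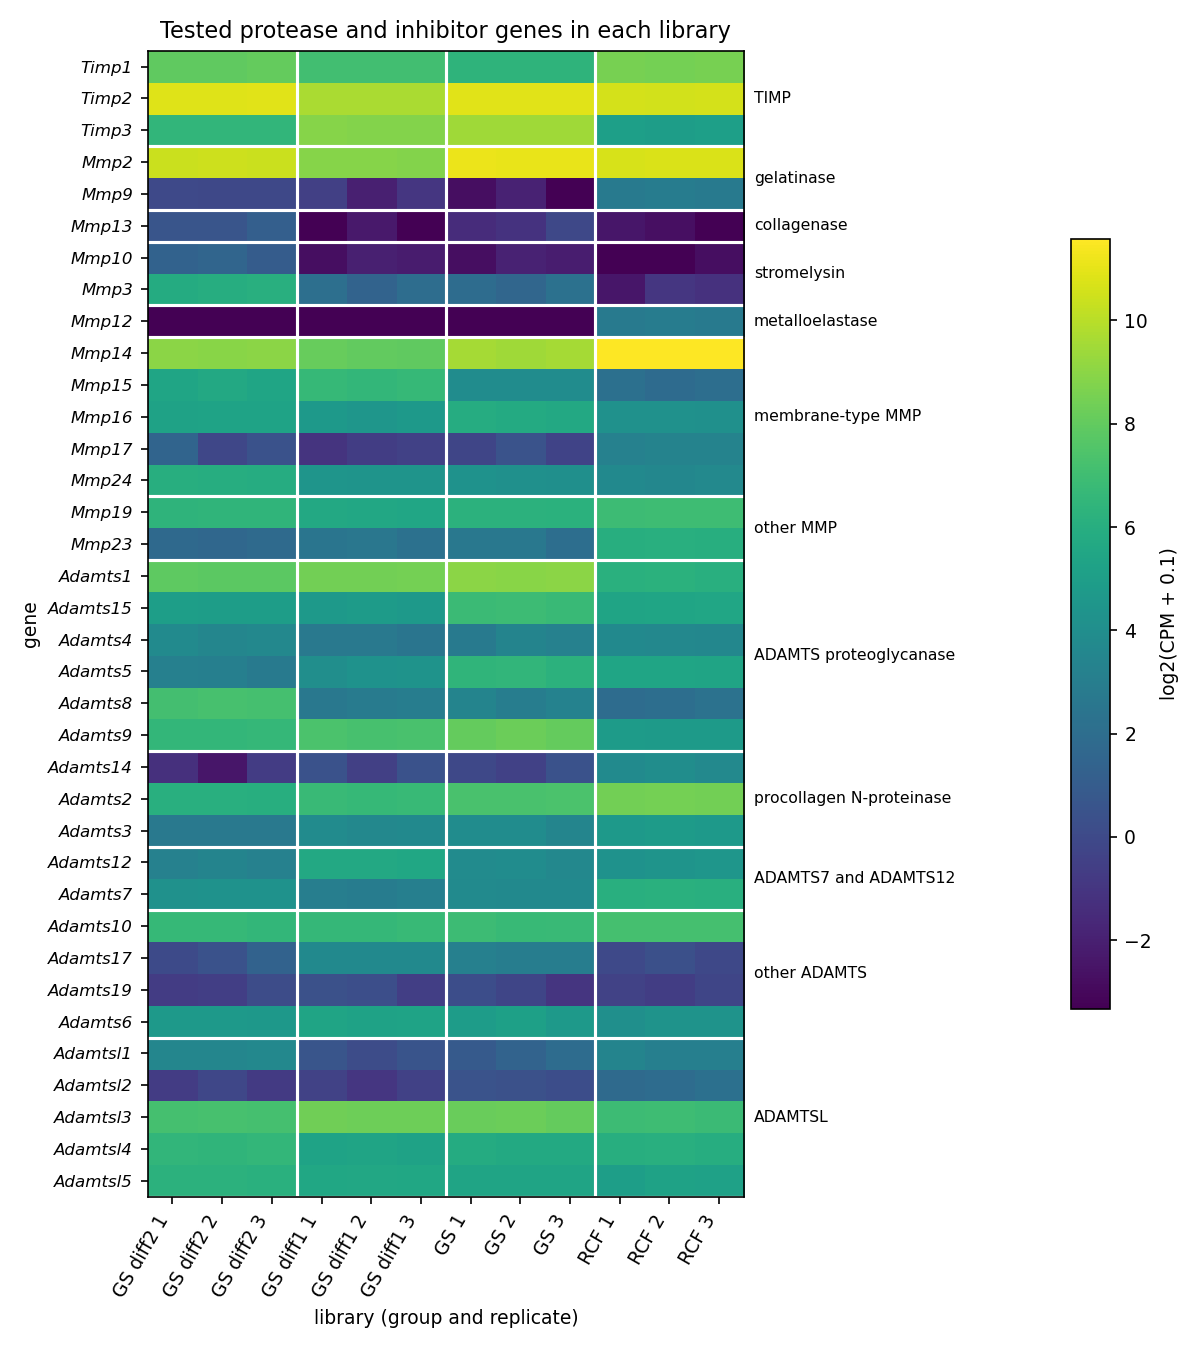
Levels of the 36 tested genes in each of the 12 libraries, as log2(CPM + 0.1), with genes in rows by family and libraries in columns by group (GS diff2, GS diff1, GS, RCF; replicates 1 to 3). Timp2, Mmp2 and Mmp14 are bright in all libraries, Mmp12 has counts in RCF only, and Mmp3 and Adamts8 are brightest in GS diff2.

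GS cells were compared with RCF to see what set the immortalized cells apart from the fibroblasts they came from. In GS, Timp3 rose 21.3-fold, Mmp3 13.8-fold, Adamts9 9.85-fold, Adamts17 8.51-fold and Adamts1 7.19-fold. Adamts14 fell 15.7-fold in GS, Mmp23 11.8-fold, Mmp17 10.4-fold, Adamts7 5.02-fold, Timp1 4.32-fold and Mmp14 4.12-fold. Of the 36 tested genes, 17 were higher and 17 lower in GS, or 47.2% in each direction, beside 35.0% higher and 36.3% lower, 71.3% in all, among all tested genes. At least 2-fold changes were called in 61.1% of the tested protease and inhibitor genes and in 25.9% of all tested genes. The median log2 fold change was 0.17 for these genes and -0.03 for all.

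CMM medium alone was compared with undifferentiated GS cells. In GS diff1, Mmp15 rose 6.47-fold and Adamts12 3.55-fold, while Mmp2 fell 4.79-fold, Adamts5 4.51-fold, Adamts15 4.23-fold, Mmp14 2.83-fold and Timp2 2.32-fold. Of the tested genes, 9 were higher and 19 lower, or 25.0% and 52.8%, beside 32.0% and 32.3%, 64.3% in all, of all tested genes. Their median log2 fold change was -0.45, beside -0.002 for all genes. The 8 genes that did not pass the test were Mmp3, Mmp10, Mmp12, Mmp17, Mmp23, Adamts3, Adamts14 and Adamts19.

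CMM medium with EGM2 was compared with the same GS libraries, so both media comparisons share their control samples. In GS diff2, Mmp3 rose 16.7-fold, Adamts8 15.6-fold, Adamtsl1 4.41-fold, Mmp24 3.47-fold and Timp1 3.01-fold. Adamts5 fell 10.3-fold, Timp3 7.92-fold, Adamts17 5.25-fold and Adamts15 3.62-fold. Of the tested genes, 14 were higher and 18 lower, or 38.9% and 50%, beside 33.3% and 33.7%, 67.0% in all, of all tested genes. The median log2 fold change was -0.14 for these genes and 0.00 for all genes.

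GS diff2 and GS diff1 were then set against each other, which compares CMM medium with and without EGM2. Time in medium is not given, and Sall4 and Gata4 were lower in GS diff2. The added EGM2, the time and the levels of these factors cannot be told apart here. In GS diff2, Adamts8 was 21.0-fold, Mmp3 17.5-fold, Adamtsl1 9.18-fold and Mmp2 2.94-fold higher, while Adamts17 was 8.60-fold, Adamts12 5.17-fold and Timp3 5.14-fold lower. Of the tested genes, 19 were higher and 13 lower, or 52.8% and 36.1%, beside 32.1% and 31.5%, 63.7% in all, of all tested genes. The median log2 fold change was 0.43 for these genes and 0.00 for all.

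**Figure D2:**
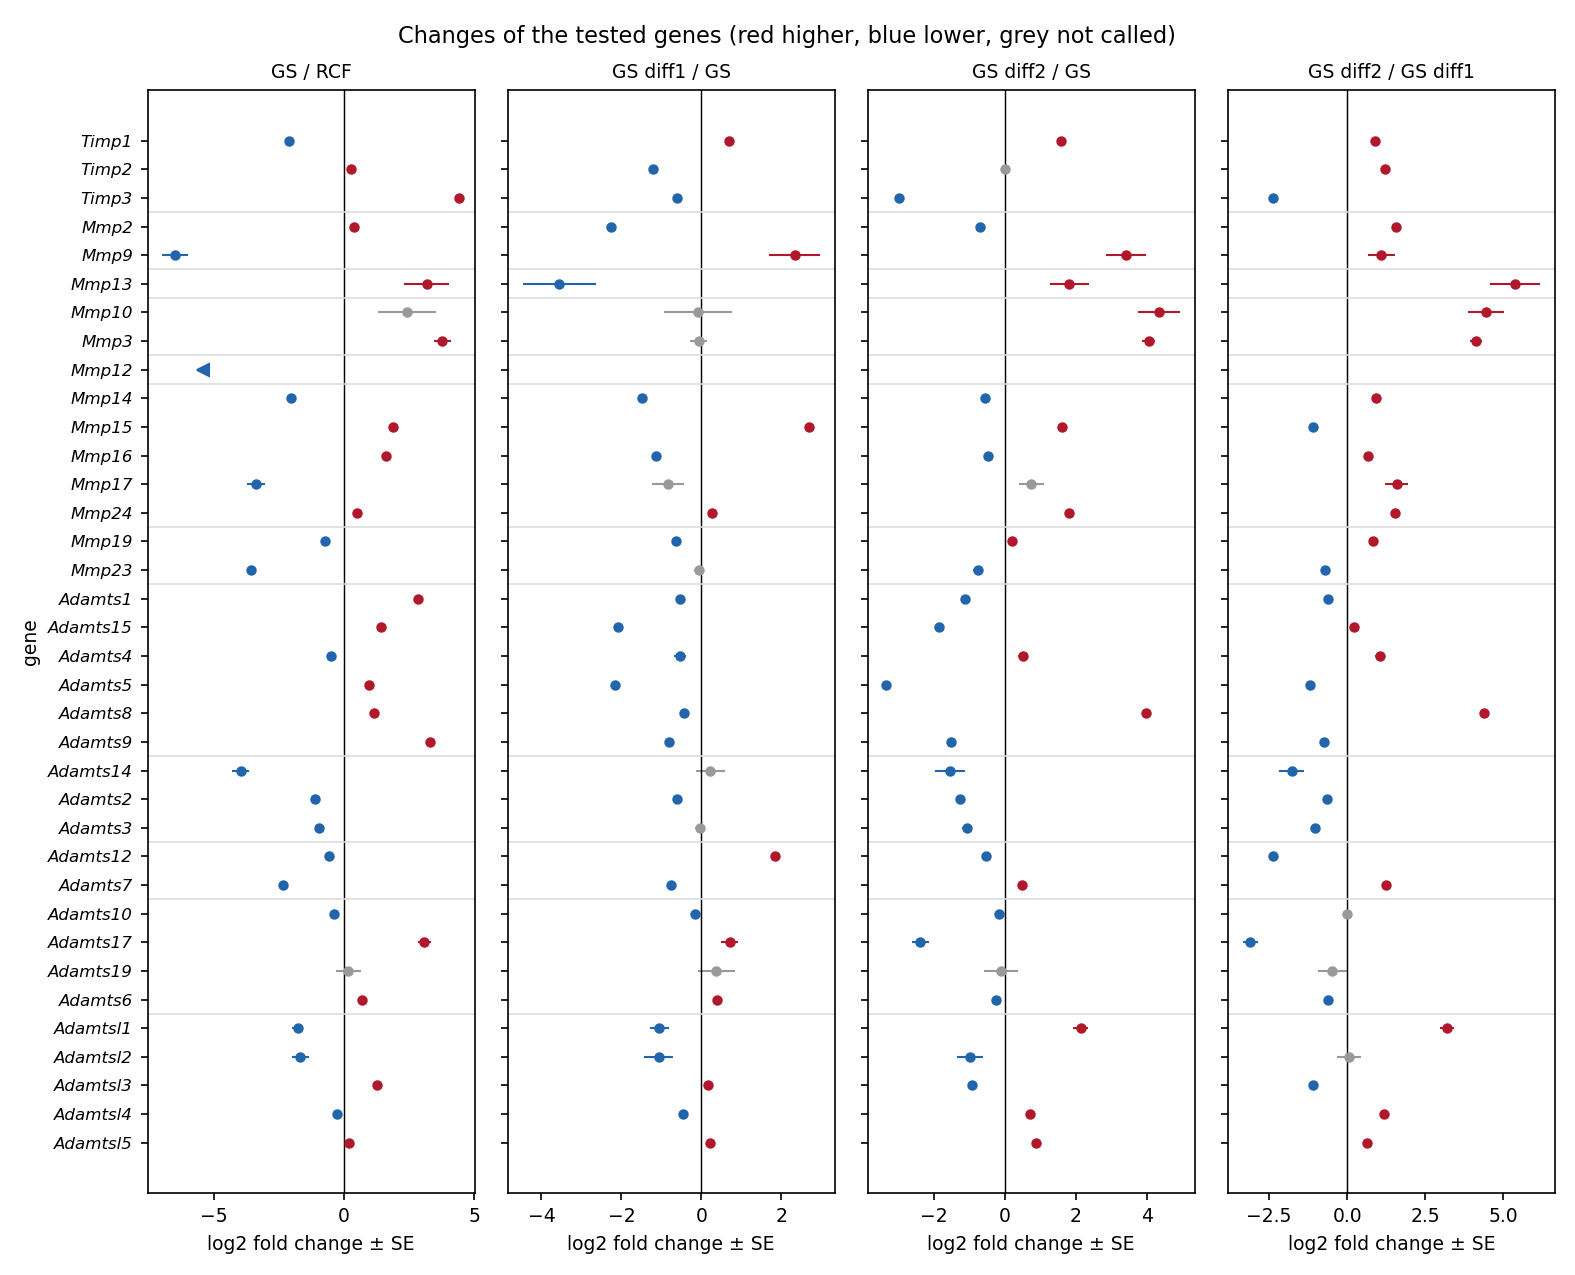
Log2 fold changes with standard errors (x axes) of the tested genes (rows, by family) in the 4 main comparisons, with genes called higher in red, lower in blue and not called in grey. Mmp12 is drawn as an arrow at its bound against RCF and left out elsewhere because it had 0 counts in all GS-derived libraries. The fitted values of Mmp9, Mmp10 and Mmp13 rest on few counts. The x axes differ between panels, and the Timp3 point lies far to the right in GS over RCF and to the left in both comparisons of GS diff2.

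TIMP inhibitors made up a large share of the measured mRNA of these families, and each of the 3 tested members had a different pattern over the groups. Timp3 is the inhibitor that binds to the matrix and also blocks ADAM and ADAMTS proteases (ENSRNOG00000004303, Rnor_6.0 chromosome 7, 23544215 to 23594133, minus strand). It had 89.7, 89.1 and 87.8 CPM in GS diff2, 467, 453 and 451 CPM in GS diff1, 694, 707 and 712 CPM in GS and 33.5, 31.4 and 34.1 CPM in RCF. No 2 groups overlapped, with GS highest and RCF lowest. The log2 fold change was 4.41 ± 0.037 in GS against RCF (adjusted p = 4.55e-37), -0.62 ± 0.030 in GS diff1 against GS (adjusted p = 2.34e-17), -2.99 ± 0.034 in GS diff2 against GS (adjusted p = 2.6e-33) and -2.36 ± 0.033 in GS diff2 against GS diff1 (adjusted p = 4.98e-31).

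Timp1, a secreted inhibitor that acts on many MMPs but poorly on membrane-type enzymes, ran the other way between GS and RCF (ENSRNOG00000010208, chromosome X, 1364786 to 1369384, minus strand). It had 243, 249 and 262 CPM in GS diff2, 135, 137 and 132 CPM in GS diff1, 83.5, 83.3 and 83.5 CPM in GS and 369, 349.7 and 363 CPM in RCF. The groups did not overlap, and every GS-derived library was below every RCF library. Timp1 was 4.32-fold lower in GS compared with RCF (log2 -2.11 ± 0.037, adjusted p = 6.58e-29), and higher than in GS in each medium, by 3.01-fold in GS diff2 (adjusted p = 1.33e-25) and 1.61-fold in GS diff1 (adjusted p = 3.94e-16). Timp1 lies inside Syn1 and Timp3 inside Syn3. Their hosts had at most 78 and 31 counts in a library.

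Timp2, which inhibits MMPs and also takes part in the activation of pro-Mmp2 on the cell surface, was the most abundant of the 3 per kb of gene model in every group (ENSRNOG00000003148, chromosome 10, 107338465 to 107386072, minus strand). It had 1883, 1831 and 1899 CPM in GS diff2, 817, 811 and 811 CPM in GS diff1, 1889, 1888 and 1887 CPM in GS and 1544, 1529 and 1562 CPM in RCF. GS diff1 stood apart below the rest, while GS diff2 and GS overlapped. Timp2 fell 2.32-fold in GS diff1 against GS (log2 -1.21 ± 0.023, adjusted p = 1.75e-27) and was 1.22-fold higher in GS than in RCF (adjusted p = 2e-12). For GS diff2 against GS its log2 fold change was -0.01 ± 0.023 and did not pass the test (adjusted p = 0.637). With library totals as the only scaling it was 0.07 and passed (adjusted p = 0.00588), and without GS diff2 replicate 2 it was 0.00 (adjusted p = 0.918). Timp4, the inhibitor known for its level in adult heart, had at most 1 count in a library.

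Mmp2 and Mmp14 carried most of the measured Mmp mRNA. Mmp2 is a gelatinase that cuts denatured and basement membrane collagens (ENSRNOG00000016695, chromosome 19, 15542765 to 15570611, minus strand). It had 1334, 1370 and 1360 CPM in GS diff2, 462, 466 and 455 CPM in GS diff1, 2241, 2195 and 2193 CPM in GS and 1658, 1699 and 1671 CPM in RCF. The groups did not overlap, with GS highest and GS diff1 lowest. Mmp2 was 1.32-fold higher in GS than in RCF (log2 0.40 ± 0.023, adjusted p = 1.58e-15) and fell 4.79-fold in GS diff1 (log2 -2.26 ± 0.025, adjusted p = 1.61e-33) and 1.63-fold in GS diff2 (adjusted p = 1.38e-21), each against GS.

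Mmp14 is the membrane-type enzyme that cuts fibrillar collagen and activates pro-Mmp2 (ENSRNOG00000010947, chromosome 15, 33074441 to 33083655, plus strand). It had 500.4, 492 and 507 CPM in GS diff2, 277, 258 and 250.2 CPM in GS diff1, 755, 711 and 753 CPM in GS and 3051, 3024 and 3057 CPM in RCF. RCF stood far above all GS-derived libraries, and GS diff1 was lowest. Mmp14 was 4.12-fold lower in GS compared with RCF (log2 -2.04 ± 0.031, adjusted p = 1.28e-29), and lower again than in GS by 2.83-fold in GS diff1 (adjusted p = 6.65e-26) and 1.48-fold in GS diff2 (adjusted p = 5.43e-16). Per kb of gene model, Mmp14 made up 26.7% of the summed Mmp level in GS diff2, 33.2% in GS diff1, 27.8% in GS and 65.4% in RCF. Mmp2 made up 57.4% in GS diff2, 46.4% in GS diff1, 66.0% in GS and 28.6% in RCF, so the leading Mmp mRNA per kb was Mmp14 in RCF and Mmp2 in the 3 GS-derived groups.

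Of the 5 membrane-type genes, 3 were higher and 2 lower in GS against RCF, beside 35.0% and 36.3% of all tested genes. Mmp15, a transmembrane enzyme that can also activate pro-Mmp2, had 43.0, 50.9 and 43.9 CPM in GS diff2, 101.1, 91.9 and 99.3 CPM in GS diff1, 15.2, 14.98 and 14.9 CPM in GS and 4.48, 3.64 and 4.02 CPM in RCF. Each group was separate from the others, and GS diff1 was highest. Mmp15 rose 3.70-fold in GS against RCF (log2 1.89 ± 0.0996, adjusted p = 1.24e-16), and 6.47-fold in GS diff1 (log2 2.69 ± 0.076, adjusted p = 2.71e-23) and 3.05-fold in GS diff2 (adjusted p = 1.17e-17) against GS.

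Mmp24, a transmembrane enzyme known from the nervous system, had 64.2, 63.1 and 60.01 CPM in GS diff2, 22.1, 21.3 and 20.9 CPM in GS diff1, 19.3, 17.6 and 16.9 CPM in GS and 13.5, 11.96 and 13.1 CPM in RCF. Only GS diff2 stood far from the rest, and it was 3.47-fold above GS (log2 1.79 ± 0.076, adjusted p = 6.64e-19). Mmp16, another transmembrane enzyme, had 38.9, 40.03 and 39.9 CPM in GS diff2, 26.9, 22.9 and 25.7 CPM in GS diff1, 59.4, 55.9 and 50.7 CPM in GS and 18.3, 18.3 and 17.5 CPM in RCF. GS was highest and RCF lowest, without overlap. Mmp16 was 3.08-fold higher in GS than in RCF (adjusted p = 5.07e-18) and fell 2.20-fold in GS diff1 against GS (adjusted p = 2.5e-14). Mmp17, which is anchored to the membrane by a lipid, was at 2.70, 0.788 and 1.253 CPM in GS diff2, 0.381, 0.555 and 0.638 CPM in GS diff1, 0.780, 1.33 and 0.708 CPM in GS and 9.33, 9.96 and 10.1 CPM in RCF. It was 10.4-fold lower in GS compared with RCF (log2 -3.38 ± 0.342, adjusted p = 2.9e-09). GS diff2 replicate 1 was its highest GS-derived library, and Mmp17 in GS diff2 was 2.99-fold above GS diff1 with it (adjusted p = 0.000798) and at a log2 fold change of 0.95 without it (adjusted p = 0.0216). Against GS, Mmp17 did not pass the test in GS diff2 (log2 0.74 ± 0.356, adjusted p = 0.0716) or GS diff1 (log2 -0.84 ± 0.402, adjusted p = 0.07). It passed in GS diff2 without GS diff2 replicate 2 (log2 1.07), without GS replicate 2 (log2 1.06), with library totals alone (log2 0.82) and with no filter on low counts (log2 0.74), and in GS diff1 with no filter (log2 -0.84).

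**Figure D3:**
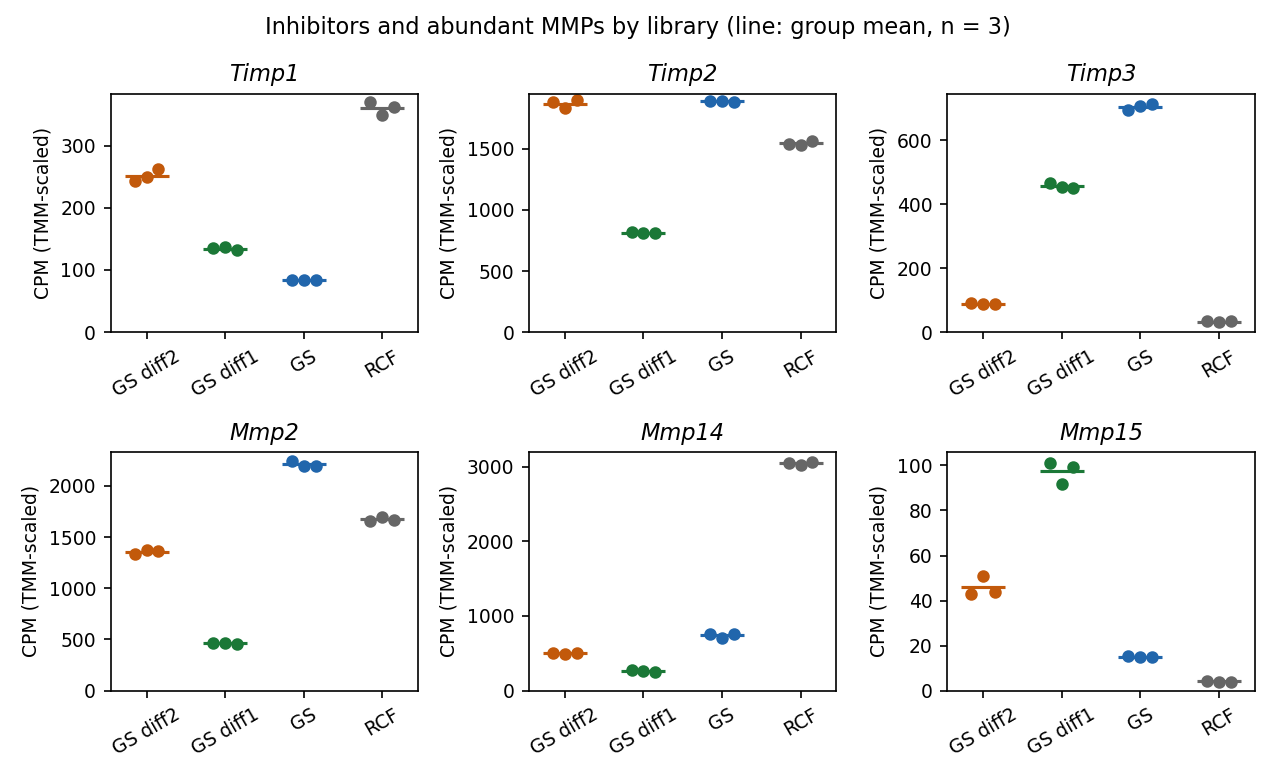
Levels of the 3 tested TIMPs, Mmp2, Mmp14 and Mmp15 in CPM (y axis) in each library (points) by group (x axis), with the group mean of 3 libraries as a line. Mmp14 sits at 3024 to 3057 CPM in RCF and at 755 CPM or less elsewhere, while Timp3 is highest in GS and Mmp15 in GS diff1.

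Taking the families as sums of CPM per kb of gene model, the Mmp sum was 768 ± 8.87 in GS diff2, 324 ± 9.17 in GS diff1, 1090 ± 16.7 in GS and 1910 ± 4.58 in RCF (SD, n = 3 each). The Timp sum was 1517 ± 29.2 in GS diff2, 932 ± 8.05 in GS diff1, 1652 ± 4.73 in GS and 1436 ± 22.0 in RCF. The ratio of the Timp sum to the Mmp sum was therefore 1.97 ± 0.038 in GS diff2, 2.88 ± 0.057 in GS diff1, 1.52 ± 0.027 in GS and 0.752 ± 0.012 in RCF. All GS-derived libraries had more Timp than Mmp mRNA per kb and all RCF libraries had less. Within the Timp sum, Timp3 made up 3.35% in GS diff2, 28.04% in GS diff1, 24.4% in GS and 1.31% in RCF, and Timp1 made up 22.4% in GS diff2, 19.5% in GS diff1, 6.82% in GS and 33.9% in RCF. The level of Timp2 over that of Mmp14, the pair that handles pro-Mmp2, was 5.49 ± 0.030 in GS diff2, 4.57 ± 0.218 in GS diff1, 3.75 ± 0.131 in GS and 0.745 ± 0.0045 in RCF. These sums and ratios were not tested, and they weigh mRNA and not protein.

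A run of 10 secreted Mmp genes lies on chromosome 8 between 5522739 and 5901049 in Rnor_6.0, in the order Mmp13, Mmp12, Mmp1b, Mmp3, Mmp1, Mmp10, Mmp8, Mmp27, Mmp20 and Mmp7. It holds collagenases, stromelysins, the metalloelastase and matrilysin, and several of its genes are known as inducible in fibroblasts or macrophages. The 250 bases upstream of the start were read from RefSeq (GRCr8) for the 4 genes of the cluster that were tested, because the results that follow turn on them. The capitals mark matches to TGANTCA. They read TGAGTCA or TGACTCA here, the core bound by AP-1 factors, while the search took any base at N.
Mmp3 (chr8:12925031-12925280, plus strand): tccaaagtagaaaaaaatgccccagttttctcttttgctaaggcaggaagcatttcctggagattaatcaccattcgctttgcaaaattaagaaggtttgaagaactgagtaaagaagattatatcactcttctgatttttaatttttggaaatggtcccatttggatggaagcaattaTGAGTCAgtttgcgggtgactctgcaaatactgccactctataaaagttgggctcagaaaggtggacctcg
Mmp10 (chr8:12974457-12974706, plus strand): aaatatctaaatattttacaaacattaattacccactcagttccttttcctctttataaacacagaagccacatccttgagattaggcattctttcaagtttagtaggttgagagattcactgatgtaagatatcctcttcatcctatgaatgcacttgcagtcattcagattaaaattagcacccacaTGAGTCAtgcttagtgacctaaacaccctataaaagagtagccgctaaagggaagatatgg
Mmp13 (chr8:12782579-12782828, plus strand): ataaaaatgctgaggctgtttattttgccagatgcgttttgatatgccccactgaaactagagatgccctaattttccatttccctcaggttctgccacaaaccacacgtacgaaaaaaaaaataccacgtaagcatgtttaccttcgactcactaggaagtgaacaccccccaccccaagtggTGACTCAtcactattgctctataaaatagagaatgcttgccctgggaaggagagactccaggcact
Mmp12 (chr8:12866402-12866651, plus strand): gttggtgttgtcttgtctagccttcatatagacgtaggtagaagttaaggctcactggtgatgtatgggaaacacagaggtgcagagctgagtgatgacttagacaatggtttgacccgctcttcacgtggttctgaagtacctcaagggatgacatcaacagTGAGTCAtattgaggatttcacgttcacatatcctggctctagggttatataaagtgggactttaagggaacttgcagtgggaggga
The motif was searched on both strands of the 250 bases upstream of each start. It began 71 bases upstream in Mmp3, 61 in Mmp10, 66 in Mmp13 and 87 in Mmp12. Of the 10 cluster genes, 7 held it, and none of the 28 other genes with a promoter entry did (0 of 28). Among the 33469 promoters in the table, 6.34% held it. No entry was given for 11 genes outside the cluster, which were not searched. They are Mmp2, Mmp9, Mmp14, Mmp16, Mmp17, Mmp19, Adamts5, Adamts8, Adamts15, Adamts16 and Adamts19. Mmp1, Mmp7 and Mmp20 also held it and had 0 counts in all libraries. A match describes these letters only and says nothing of binding.

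Mmp3, a stromelysin that cuts many matrix proteins and activates procollagenases (ENSRNOG00000032626, chromosome 8, 5676665 to 5698579, plus strand), had 58.0, 62.8 and 66.2 CPM in GS diff2. It had 4.19, 2.57 and 3.94 CPM in GS diff1, 3.72, 2.95 and 4.57 CPM in GS and 0.0845, 0.411 and 0.331 CPM in RCF. All GS diff2 libraries were far above the others, GS diff1 and GS overlapped, and RCF was lowest. Mmp3 rose 16.7-fold in GS diff2 against GS (log2 4.06 ± 0.186, adjusted p = 2.02e-11) and 17.5-fold against GS diff1 (adjusted p = 1.75e-11), and it was 13.8-fold higher in GS than in RCF (log2 3.78 ± 0.334, adjusted p = 6.15e-08). In GS diff1 against GS the log2 fold change was -0.07 ± 0.214 (adjusted p = 0.811).

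Mmp10, the other stromelysin of the cluster, and Mmp13, the main interstitial collagenase of rodents, were also highest in GS diff2 but at far lower levels. Mmp10 had 147 counts over the 3 GS diff2 libraries, 6 over GS diff1, 6 over GS and 1 over RCF. Per library it was at 2.49, 2.76 and 1.88 CPM in GS diff2 and at no more than 0.174 CPM in any other library. Mmp10 rose in GS diff2 against GS (adjusted p = 1.58e-07), with a ratio of scaled counts of 21.8 (exact 95% interval 9.80 to 60.5, counting error only). In GS against RCF it missed the threshold (log2 2.43 ± 1.13, adjusted p = 0.0567), and passed without GS replicate 1 (log2 2.85) or RCF replicate 3 (log2 4.21). Mmp10 and Mmp3 are similar in sequence, and how reads shared between such genes were counted is not given in the sources used here.

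For Mmp13 the 3 libraries gave 102 counts in GS diff2, 2 in GS diff1, 25 in GS and 3 in RCF. It was at 1.40, 1.44 and 2.19 CPM in GS diff2 and at 0.275, 0.347 and 0.837 CPM in GS, where replicate 3 was the highest. Mmp13 rose 3.52-fold in GS diff2 against GS (log2 1.82 ± 0.547, adjusted p = 0.00448), and without GS replicate 3 the log2 fold change was 2.42 (adjusted p = 0.0022). In GS diff1 against GS it fell (adjusted p = 0.00126), with a ratio of 13.3 (exact 95% interval 3.32 to 116, counting error only). Against RCF it was higher in GS (adjusted p = 0.00149), with a ratio of 9.81 (exact 95% interval 2.99 to 50.8). In GS diff2 it was also higher than in GS diff1 (adjusted p = 8.16e-07), with a ratio of 48.4 (exact 95% interval 13.1 to 405). Leaving out single libraries with many or few of these counts moved the fitted log2 values but ended no call. In GS against RCF it was 3.18, 2.58 without GS replicate 3 and 3.94 without RCF replicate 1. In GS diff1 against GS it was -3.56, -2.95 without GS replicate 3 and -6.25 without GS diff1 replicate 2. In GS diff2 against GS diff1 it was 5.37, and 8.06 without GS diff1 replicate 2.

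Mmp12, the metalloelastase best known from macrophages, ran opposite to these neighbours. It had 0 counts in all 9 GS-derived libraries, against 6.88, 7.49 and 7.05 CPM in RCF. Against a floor of 3 counts per library it was at least 48.3-fold lower in GS diff2, 45.8-fold lower in GS diff1 and 42.5-fold lower in GS compared with RCF (adjusted p = 1.46e-12 for GS). Mmp9, the gelatinase of neutrophils and macrophages on chromosome 3, had a like pattern, with 52 counts in GS diff2, 23 in GS diff1, 4 in GS and 456 in RCF over the 3 libraries each. Per library, Mmp9 was at 0.882, 0.832 and 0.836 CPM in GS diff2, 0.618, 0.151 and 0.406 CPM in GS diff1, 0.0459, 0.174 and 0 CPM in GS and 7.01, 7.59 and 6.72 CPM in RCF. Its level was lower in GS compared with RCF (adjusted p = 1.01e-12), with a ratio of 96.8 (exact 95% interval 37.6 to 357). In GS diff2 it was higher than in GS (adjusted p = 4.35e-06), with a ratio of 11.6 (exact 95% interval 4.26 to 44.1). In GS diff1 it was also called higher than in GS (adjusted p = 0.00189), although libraries of these groups overlapped. Without GS replicate 2, the GS library with most Mmp9 counts, the log2 value was -7.76 in GS against RCF in place of -6.48, 4.70 in GS diff2 against GS in place of 3.43 and 3.62 in GS diff1 against GS in place of 2.33.

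The call of Mmp9 between GS diff2 and GS diff1 (log2 1.10 ± 0.421, adjusted p = 0.0243) ended without GS diff1 replicate 2 (log2 0.70, adjusted p = 0.157) and with only the libraries of these groups in the fit (log2 1.09, adjusted p = 0.0644). Markers of macrophages and neutrophils had a lower sum in all GS-derived groups than in RCF, as Mmp12 and Mmp9 did. The sum was lower in GS diff1 than in GS, where Cd14 was the only marker called lower (1.64-fold). Csf1r (4.74-fold), Fcer1g (4.70-fold) and Cd68 (1.88-fold) were higher there, as Mmp9 was. Some of these folds rest on few counts. Fcer1g had 15, 9 and 3 counts in GS diff1 and 2, 0 and 3 in GS, and these groups overlapped. Csf1r had 26, 28 and 33 counts in GS diff1 and 5, 7 and 5 in GS. The 12 markers summed to 34.2 to 36.7 CPM in GS diff2, 16.8 to 18.1 CPM in GS diff1, 22.8 to 27.1 CPM in GS and 56.9 to 57.6 CPM in RCF. Of 9 tested markers, 2 were higher and 7 lower in GS than in RCF, beside 35.0% and 36.3% of all tested genes. In GS diff1 against GS, 3 were higher and 1 lower, beside 32.0% and 32.3% of all tested genes. Cd14 was 1.34-fold higher in GS than in RCF and made up most of the sum in the GS-derived groups, with a mean of 29.4 CPM in GS diff2, 14.1 CPM in GS diff1, 23.2 CPM in GS and 17.3 CPM in RCF. Ptprc, Adgre1, Tyrobp and Cx3cr1 were at 0 in GS and in GS diff1 and had counts in RCF, while Cd163 was at 0 in all groups and S100a9 in RCF. The part of these markers in the Mmp12 and Mmp9 results was not tested.

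**Figure D4:**
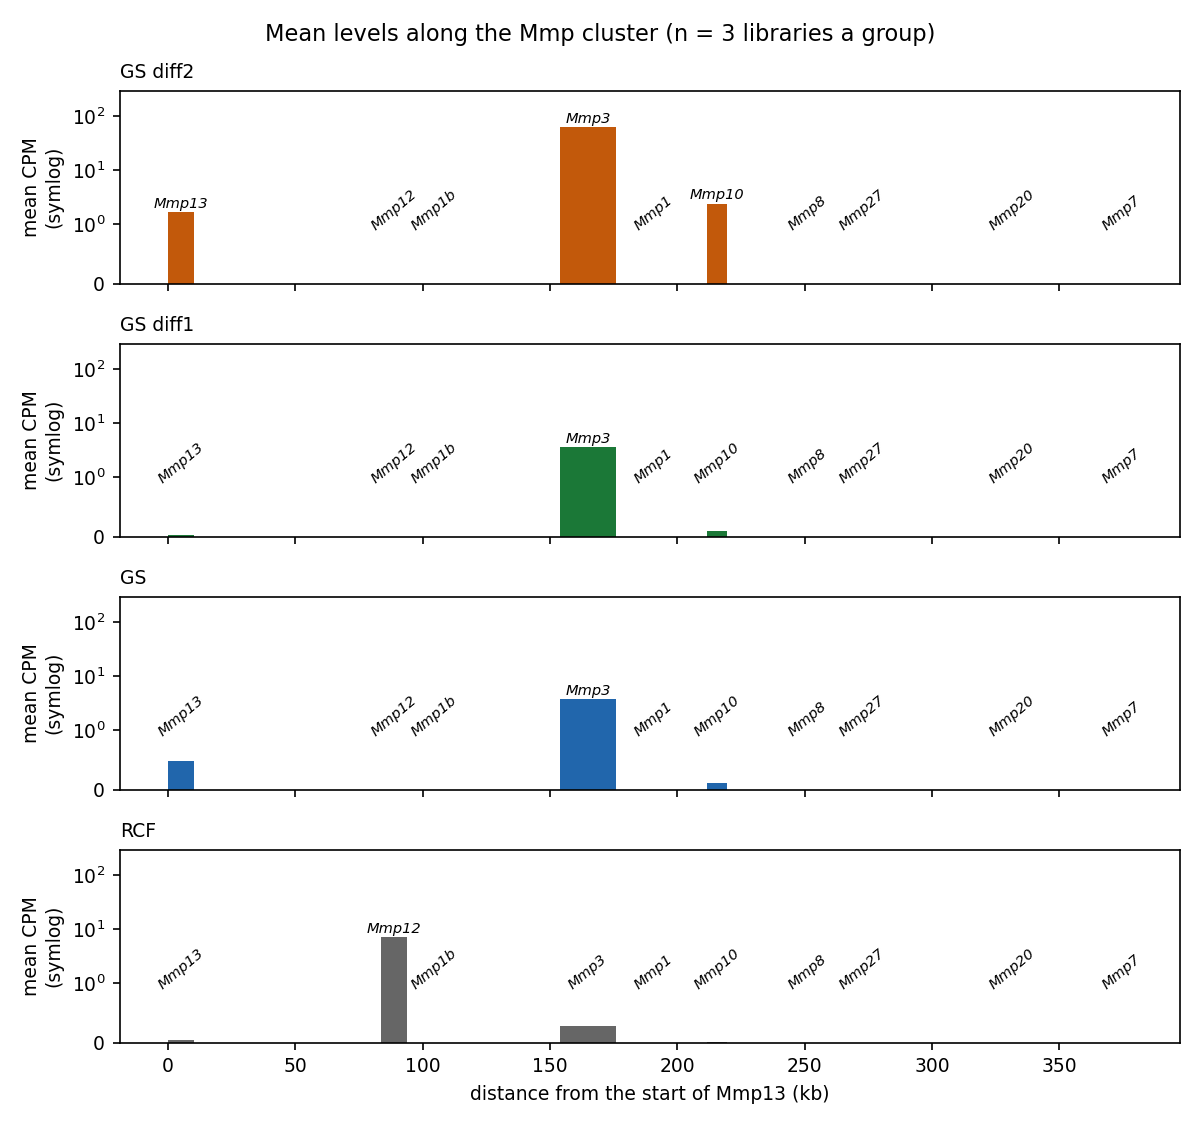
Mean CPM (y axis, linear to 1 and logarithmic above) of the 10 cluster genes against distance from the start of Mmp13 in kb (x axis), in 1 panel per group of 3 libraries. Mmp3, Mmp10 and Mmp13 have their tallest bars in GS diff2, Mmp12 has a bar in RCF only, and 6 genes have none.

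Among the remaining MMPs, Mmp23, an atypical enzyme without a haemopexin domain, had 3.27, 3.11 and 3.45 CPM in GS diff2, 5.37, 5.90 and 4.58 CPM in GS diff1, 6.24, 6.19 and 3.99 CPM in GS and 64.5, 67.02 and 65.2 CPM in RCF. RCF stood apart from all other libraries, and Mmp23 was 11.8-fold lower in GS (log2 -3.57 ± 0.118, adjusted p = 1.1e-21). Mmp19, a widely made secreted enzyme, averaged 85.9 ± 1.76 CPM in GS diff2, 48.1 ± 2.98 CPM in GS diff1, 74.8 ± 1.79 CPM in GS and 123.1 ± 2.16 CPM in RCF (SD, n = 3 each). It was 1.65-fold lower in GS compared with RCF (adjusted p = 2.06e-14), fell 1.55-fold in GS diff1 against GS (adjusted p = 1.9e-12) and rose 1.15-fold in GS diff2 against GS (adjusted p = 0.000551).

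The ADAMTS proteoglycanases cut aggrecan, versican and related proteoglycans. Of the 6 tested members of this group, 5 were higher and 1 lower in GS than in RCF, 6 of 6 were lower in GS diff1 than in GS, and 2 were higher and 4 lower in GS diff2 than in GS. Among all tested genes, 35.0% were higher and 36.3% lower in GS against RCF, 32.3% were lower in GS diff1 against GS, and 33.3% were higher and 33.7% lower in GS diff2 against GS. Per kb of gene model, the leading member in every group was Adamts1, at 52.0 CPM per kb in GS diff2, 79.0 in GS diff1, 114 in GS and 15.9 in RCF. The next was Adamts8 in GS diff2 at 48.2 CPM per kb, Adamts9 in GS diff1 at 19.9 and in GS at 34.7, and Adamts5 in RCF at 13.3.

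Adamts1 (ENSRNOG00000001607, chromosome 11, 25342126 to 25350974, minus strand), which cuts both aggrecan and versican, had 231, 230.1 and 225 CPM in GS diff2. It had 345, 342 and 355 CPM in GS diff1, 516, 496 and 498 CPM in GS and 71.3, 72.0 and 66.8 CPM in RCF. The groups did not overlap, in the order GS, GS diff1, GS diff2 and RCF from high to low. Adamts1 was 7.19-fold higher in GS than in RCF (log2 2.85 ± 0.036, adjusted p = 1.1e-32) and fell 2.20-fold in GS diff2 (adjusted p = 2.99e-23) and 1.45-fold in GS diff1 (adjusted p = 4.13e-15), each against GS. Adamts9, a versican-cutting enzyme conserved across animals, had the same order of groups, at 94.0, 94.4 and 97.5 CPM in GS diff2, 163, 154 and 157 CPM in GS diff1, 262, 302 and 265 CPM in GS and 28.5, 27.4 and 28.1 CPM in RCF. It was 9.85-fold higher in GS than in RCF (log2 3.30 ± 0.051, adjusted p = 2.2e-30).

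Adamts5, an aggrecanase of joint cartilage in mice, neighbours Adamts1 on chromosome 11 with 60000 bases between them. It had 8.71, 8.41 and 6.95 CPM in GS diff2, 16.1, 19.6 and 19.7 CPM in GS diff1, 85.1, 87.8 and 76.3 CPM in GS and 42.8, 42.6 and 41.5 CPM in RCF. Both media left Adamts5 below RCF, and Adamts1 above it. Adamts5 rose 1.97-fold in GS against RCF (log2 0.98 ± 0.075, adjusted p = 8.87e-13) and fell 10.3-fold in GS diff2 (log2 -3.37 ± 0.088, adjusted p = 3.17e-24) and 4.51-fold in GS diff1 (adjusted p = 2.63e-20) against GS.

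Adamts8, a proteoglycanase known from lung and heart, was the member that set GS diff2 apart (ENSRNOG00000005574, chromosome 8, 32018560 to 32037531, plus strand). It had 141, 150.4 and 146 CPM in GS diff2, 6.09, 7.11 and 7.71 CPM in GS diff1, 10.51, 7.81 and 9.53 CPM in GS and 3.76, 4.05 and 4.87 CPM in RCF. GS diff2 lay far above all other libraries. Below it, Adamts8 was 2.21-fold higher in GS than in RCF (adjusted p = 8.38e-10). It was 1.64-fold higher in GS diff1 than in RCF (adjusted p = 5.53e-06). Adamts8 rose 15.6-fold in GS diff2 against GS (log2 3.97 ± 0.088, adjusted p = 3.64e-25) and fell 1.35-fold in GS diff1 against GS (adjusted p = 0.00118), and GS diff2 was 21.0-fold above GS diff1 (log2 4.39 ± 0.091, adjusted p = 8.62e-26). Its share of the summed Adamts level per kb was 28.6% in GS diff2, 1.30% in GS diff1, 1.15% in GS and 0.885% in RCF.

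Adamts15 lies next to Adamts8 on the opposite strand, with 18181 bases between the genes, and moved differently. Adamts15 had 32.5, 31.8 and 30.9 CPM in GS diff2, 25.6, 29.0 and 26.9 CPM in GS diff1, 114, 121 and 111 CPM in GS and 41.1, 42.8 and 44.6 CPM in RCF. GS was highest and did not overlap with any other group. Adamts15 rose 2.69-fold in GS against RCF (adjusted p = 1.31e-19), and fell 3.62-fold in GS diff2 (log2 -1.86 ± 0.059, adjusted p = 4.47e-22) and 4.23-fold in GS diff1 (log2 -2.08 ± 0.060, adjusted p = 5.9e-23) against GS. Adamts4, the aggrecanase induced by inflammatory signals, averaged 12.6 ± 1.35 CPM in GS diff2, 6.09 ± 0.604 CPM in GS diff1, 8.90 ± 1.68 CPM in GS and 12.4 ± 0.877 CPM in RCF (SD, n = 3 each), and was 2.06-fold higher in GS diff2 than in GS diff1 (adjusted p = 4.23e-07). Adamts20, the remaining proteoglycanase, was too low to test.

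**Figure D5:**
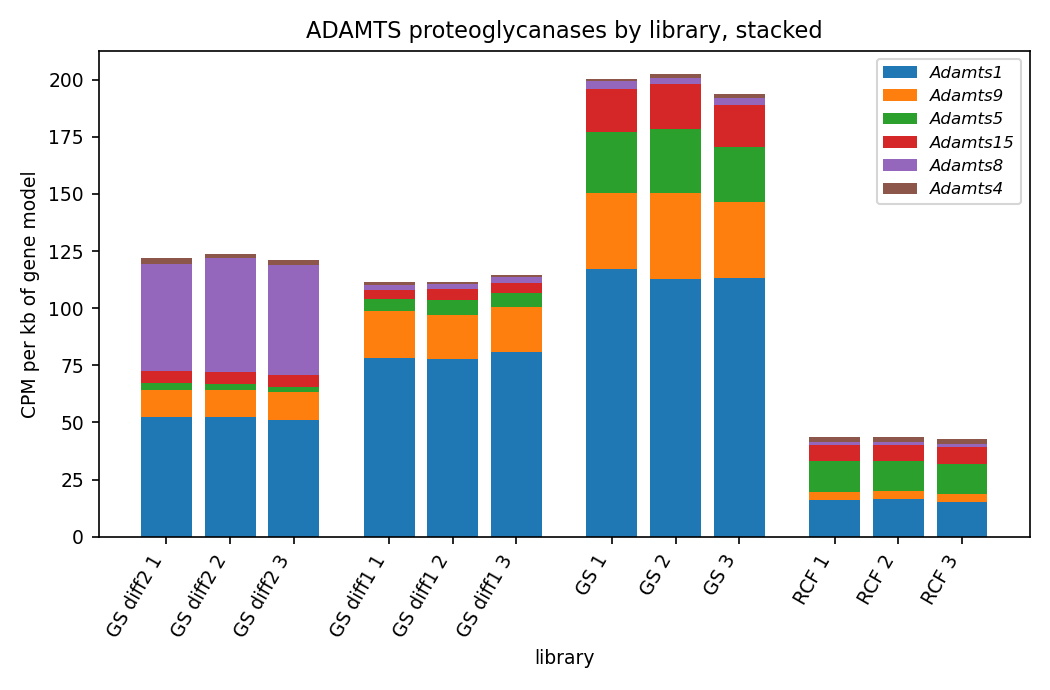
Stacked levels of the 6 tested ADAMTS proteoglycanases in CPM per kb of gene model (y axis) in each library (x axis, by group). The Adamts8 segment is wide in GS diff2 at a mean of 48.2 and thin in the other groups, and the stacks are tallest in GS.

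The procollagen N-proteinases remove the amino-terminal propeptide of fibrillar collagens. All 3 were tested and all 3 were lower in GS than in RCF, as were 36.3% of all tested genes. Adamts2 had 67.1, 67.1 and 65.4 CPM in GS diff2, 108, 99.7 and 105 CPM in GS diff1, 159, 159 and 162 CPM in GS and 334, 353 and 343 CPM in RCF. These groups did not overlap, and Adamts2 was 2.15-fold lower in GS compared with RCF (log2 -1.10 ± 0.036, adjusted p = 6.05e-22) and 2.40-fold lower in GS diff2 than in GS (adjusted p = 1.46e-22). Adamts3, which also takes part in VEGF-C processing, averaged 6.45 ± 0.082 CPM in GS diff2, 13.3 ± 0.988 CPM in GS diff1, 13.6 ± 2.39 CPM in GS and 27.0 ± 1.29 CPM in RCF, and was 1.97-fold lower in GS compared with RCF (adjusted p = 6.42e-09). Adamts14 had 0.311, 0.0876 and 0.522 CPM in GS diff2, 1.24, 0.605 and 1.27 CPM in GS diff1, 0.826, 0.636 and 1.22 CPM in GS and 13.8, 15.4 and 13.0 CPM in RCF. It was 15.7-fold lower in GS compared with RCF (log2 -3.98 ± 0.327, adjusted p = 1.25e-10). In GS diff2 Adamts14 was 2.94-fold lower than in GS (log2 -1.55 ± 0.421, adjusted p = 0.00236), a log2 fold change that was -2.17 without GS diff2 replicate 3 (adjusted p = 0.000202). Against GS diff1 it was -1.78 with that library and -2.40 without it.

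Adamts7 and Adamts12, which cut cartilage oligomeric matrix protein (Comp), were both lower in GS than in RCF, as were 36.3% of all tested genes, and split between the media. Adamts12 had 9.33, 10.2 and 9.40 CPM in GS diff2, 51.1, 51.4 and 47.6 CPM in GS diff1, 14.7, 15.1 and 12.4 CPM in GS and 19.3, 21.0 and 22.2 CPM in RCF. GS diff1 stood above all other libraries. Adamts12 rose 3.55-fold in GS diff1 against GS (log2 1.83 ± 0.088, adjusted p = 1.91e-17) and fell 1.46-fold in GS diff2 against GS (adjusted p = 1.01e-05). Adamts7 had 18.7, 18.9 and 19.5 CPM in GS diff2, 8.13, 7.41 and 8.64 CPM in GS diff1, 13.9, 13.5 and 13.6 CPM in GS and 68.1, 69.6 and 68.1 CPM in RCF. It was 5.02-fold lower in GS compared with RCF (log2 -2.33 ± 0.076, adjusted p = 6.36e-22), 1.39-fold higher in GS diff2 than in GS (adjusted p = 4.65e-06) and 1.70-fold lower in GS diff1 than in GS (adjusted p = 5.11e-09). Their shared substrate Comp averaged 22.2 ± 3.03 CPM in GS diff2, 38.7 ± 1.34 CPM in GS diff1, 87.6 ± 3.97 CPM in GS and 2.48 ± 0.783 CPM in RCF.

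Among the other ADAMTS genes, Adamts17, linked in people to fibrillin disorders of the eye and skeleton, had 0.933, 1.23 and 2.51 CPM in GS diff2, 13.4, 13.6 and 13.1 CPM in GS diff1, 8.72, 7.87 and 7.86 CPM in GS and 0.887, 1.13 and 0.852 CPM in RCF. GS diff2 overlapped with RCF, and GS diff1 was highest. Adamts17 was 8.51-fold higher in GS than in RCF (log2 3.09 ± 0.251, adjusted p = 7.11e-12), rose 1.64-fold in GS diff1 (adjusted p = 0.00444) and fell 5.25-fold in GS diff2 (log2 -2.39 ± 0.239, adjusted p = 6.28e-10), each against GS. Adamts6, which acts on fibrillin-rich matrix, had 26.3, 26.6 and 24.9 CPM in GS diff2, 41.7, 39.0 and 39.5 CPM in GS diff1, 30.3, 35.0 and 27.04 CPM in GS and 17.2, 19.9 and 19.8 CPM in RCF. GS diff1 was highest, and Adamts6 rose 1.30-fold there against GS (adjusted p = 0.00022). Its call in GS diff2 against GS (log2 -0.25 ± 0.085, adjusted p = 0.0112) ended without GS replicate 2 (log2 -0.15, adjusted p = 0.133) and when scaled by library totals alone (log2 -0.16, adjusted p = 0.092).

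Adamts10, a fibrillin-binding member, averaged 98.5 ± 3.85 CPM in GS diff2, 99.7 ± 4.43 CPM in GS diff1, 111 ± 7.02 CPM in GS and 146 ± 2.36 CPM in RCF (SD, n = 3 each). It was 1.31-fold lower in GS compared with RCF (adjusted p = 5.5e-09). Its smaller falls against GS, 1.13-fold in GS diff2 (adjusted p = 0.00135) and 1.12-fold in GS diff1 (adjusted p = 0.00326), were both lost when scaled by library totals alone (log2 -0.09 in GS diff2, adjusted p = 0.0841, and -0.10 in GS diff1, adjusted p = 0.0627), and the fall in GS diff1 also without GS replicate 1 (log2 -0.10, adjusted p = 0.0814). Adamts19 stayed between 0.386 and 1.19 CPM in all libraries and passed the test in no comparison. Adamts16 had 0 counts in all GS-derived libraries, against 10, 15 and 8 counts in RCF.

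ADAMTSL proteins bind the matrix, several of them fibrillin, and cut nothing. Of the 5, 2 were higher and 3 lower in GS than in RCF, beside 35.0% and 36.3% of all tested genes. Adamtsl3 had 148, 151 and 147 CPM in GS diff2, 321, 314 and 318 CPM in GS diff1, 285, 298 and 268 CPM in GS and 117, 122 and 115.5 CPM in RCF. No groups overlapped, and GS diff1 was highest. Adamtsl3 was 2.40-fold higher in GS than in RCF (adjusted p = 4.01e-23) and fell 1.91-fold in GS diff2 against GS (adjusted p = 9.46e-20). Adamtsl1 had 11.5, 11.3 and 12.5 CPM in GS diff2, 1.43, 1.01 and 1.39 CPM in GS diff1, 1.74, 2.55 and 3.80 CPM in GS and 10.4, 8.62 and 8.47 CPM in RCF. GS diff2 and RCF were high and GS diff1 and GS low. Adamtsl1 rose 4.41-fold in GS diff2 against GS (log2 2.14 ± 0.213, adjusted p = 3.61e-10) and was 3.44-fold lower in GS compared with RCF (adjusted p = 1.19e-08).

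Adamtsl4, tied to fibrillin in the human eye, averaged 89.3 ± 3.06 CPM in GS diff2, 39.6 ± 1.67 CPM in GS diff1, 54.5 ± 2.18 CPM in GS and 64.9 ± 3.28 CPM in RCF, and was 2.25-fold higher in GS diff2 than in GS diff1 (adjusted p = 1.32e-17). Adamtsl5 averaged 74.6 ± 4.55 CPM in GS diff2, 47.9 ± 1.61 CPM in GS diff1, 41.1 ± 0.444 CPM in GS and 36.4 ± 3.02 CPM in RCF. It rose 1.82-fold in GS diff2 against GS (adjusted p = 4.06e-13). Its call in GS against RCF (log2 0.18 ± 0.065, adjusted p = 0.0167) ended without RCF replicate 1 (log2 0.11, adjusted p = 0.155) and when scaled by library totals alone (log2 0.08, adjusted p = 0.29). Adamtsl2, a fibrillin-binding protein, averaged 0.592 ± 0.171 CPM in GS diff2, 0.569 ± 0.144 CPM in GS diff1, 1.19 ± 0.152 CPM in GS and 3.87 ± 0.450 CPM in RCF. Its call of lower in GS diff2 than in GS (log2 -0.99, adjusted p = 0.0166) was lost without GS diff2 replicate 1 (log2 -0.91, adjusted p = 0.0535), GS diff2 replicate 3 (log2 -0.86, adjusted p = 0.0647) or GS replicate 1 (log2 -0.91, adjusted p = 0.0527). The call of lower in GS diff1 than in GS (log2 -1.07, adjusted p = 0.0122) was lost without GS diff1 replicate 2 (log2 -0.86, adjusted p = 0.067).

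The 2 differentiated groups were also set against the parental fibroblasts. Against RCF, 16 of the 36 tested genes were higher and 17 lower in GS diff2, beside 37.1% and 35.4%, 72.5% in all, of all tested genes. In GS diff1, 13 were higher and 20 lower, beside 38.0% and 37.4%, 75.4% in all, of all tested genes. Mmp15 was 11.3-fold higher in GS diff2 than in RCF (adjusted p = 1.18e-24) and 23.9-fold higher in GS diff1 than in RCF (adjusted p = 6.26e-28). Mmp14 was 6.09-fold lower in GS diff2 (adjusted p = 5.06e-32) and 11.6-fold lower in GS diff1 (adjusted p = 7.59e-35) than in RCF. Adamts8 was 34.5-fold higher in GS diff2 than in RCF (log2 5.11 ± 0.097, adjusted p = 3.8e-27). For Adamts17 the call of GS diff2 above RCF (log2 0.70 ± 0.269, adjusted p = 0.0224) ended without GS diff2 replicate 3, its highest library in that group (log2 0.19, adjusted p = 0.529). It also ended without RCF replicate 1 (log2 0.64, adjusted p = 0.0688) or replicate 3 (log2 0.62, adjusted p = 0.0742), with limma-voom (log2 0.57, adjusted p = 0.16) and with only the libraries of these groups (log2 0.70, adjusted p = 0.102).

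Genes outside these families that activate or restrain proteolysis around the cell were counted as a list of 44, of which 42 were in the table and 37 were tested. Of the 37, 13 were higher and 20 lower in GS against RCF, 8 and 19 in GS diff1 against GS, 16 and 12 in GS diff2 against GS, and 23 and 5 in GS diff2 against GS diff1. The shares of all tested genes called higher and lower were 35.0% and 36.3% in the first of these comparisons, 32.0% and 32.3% in the second, 33.3% and 33.7% in the third and 32.1% and 31.5% in the last. Serpine2, an inhibitor of thrombin and plasminogen activators, averaged 1878 ± 48.0 CPM in GS diff2, 509.7 ± 5.16 CPM in GS diff1, 1314 ± 31.5 CPM in GS and 7.56 ± 0.853 CPM in RCF (SD, n = 3 each), and was 174-fold higher in GS than in RCF (adjusted p = 2.06e-38). Plau, the urokinase plasminogen activator, averaged 15.3 ± 1.08 CPM in GS diff2, 1.74 ± 0.110 CPM in GS diff1, 2.44 ± 0.553 CPM in GS and 1.65 ± 0.298 CPM in RCF, and rose 6.30-fold in GS diff2 against GS (adjusted p = 1.18e-12). Reck, a membrane-anchored inhibitor of several MMPs, averaged 203 ± 7.34 CPM in GS diff2, 54.2 ± 2.38 CPM in GS diff1, 163 ± 5.75 CPM in GS and 138 ± 7.82 CPM in RCF, and was 3.01-fold lower in GS diff1 than in GS (adjusted p = 7.22e-23). Tll1, a tolloid-like protease that processes procollagen, averaged 13.0 ± 1.67 CPM in GS diff2, 3.85 ± 1.18 CPM in GS diff1, 0.876 ± 0.105 CPM in GS and 3.42 ± 0.439 CPM in RCF, and rose 14.7-fold in GS diff2 against GS (adjusted p = 1.19e-14). Tfpi2, a serine protease inhibitor of the matrix, was 31.9-fold lower in GS compared with RCF (adjusted p = 1.15e-11).

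A list of 28 substrates of these protease families had 27 tested members. Tfpi2 stands in this list and in the one above, and is counted in both. Of the 27, 17 were higher and 6 lower in GS against RCF, and 10 and 13 in GS diff1 against GS. In GS diff2, 8 were higher and 15 lower against GS, and 12 and 12 against GS diff1. The shares of all tested genes in these comparisons are those given above. Acan and Vcan, the proteoglycans aggrecan and versican cut by the ADAMTS proteoglycanases, both rose in each medium. Acan averaged 318 ± 4.26 CPM in GS diff2, 97.8 ± 4.42 CPM in GS diff1, 21.8 ± 2.61 CPM in GS and 0.348 ± 0.131 CPM in RCF (SD, n = 3 each), and rose 14.7-fold in GS diff2 against GS (adjusted p = 7.2e-26). Vcan averaged 609 ± 6.57 CPM in GS diff2, 112 ± 5.66 CPM in GS diff1, 44.3 ± 4.33 CPM in GS and 287 ± 1.31 CPM in RCF, and rose 13.7-fold in GS diff2 against GS (adjusted p = 1.08e-27). Eln, the elastin cut by metalloelastase and gelatinases, averaged 18.2 ± 1.02 CPM in GS diff2, 55.5 ± 3.77 CPM in GS diff1, 213 ± 16.3 CPM in GS and 15.1 ± 0.290 CPM in RCF, and was 14.1-fold higher in GS than in RCF (adjusted p = 3.72e-29). Tnc, tenascin C, averaged 180 ± 5.63 CPM in GS diff2, 2376 ± 8.03 CPM in GS diff1, 773 ± 18.9 CPM in GS and 124 ± 1.29 CPM in RCF, and was 13.2-fold lower in GS diff2 than in GS diff1 (adjusted p = 8.27e-37).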

How the data were processed

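Per the labels' protocols, total RNA was prepared with the RNeasy kit and sequencing libraries were built with NuGEN's Ovation v2 RNA-seq kit. The values are gene counts in whole numbers, deposited without normalization by the authors, with Ensembl rat gene IDs, symbols, positions and lengths. Bowtie 0.12.2 and the builds mm8 and Rnor_6.0 are named per the submitters' processing notes, and the gene positions fit Rnor_6.0. Which counter was used, and whether it used strand, is not given in the sources used here, so reads of overlapping or similar genes may be mixed.

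Groups came from the labels, and the design text calls the replicates biological. Pairs of libraries within a group differed by 4.44 to 7.57 times the chi-square of sampling noise per degree of freedom. In edgeR 4.0.16 (R 4.3.3), filterByExpr kept 14399 genes and left out 18146, TMM factors set the scale, and a robust quasi-likelihood model of the 4 groups was fitted over all 12 libraries, with 8 residual degrees of freedom and a biological coefficient of variation of 9.72%. Contrasts were two-sided, and p-values were adjusted by Benjamini-Hochberg over all tested genes with a threshold of 0.05. CPM per kb divides by the gene length in the table. Genes with 0 counts in a group were compared with a floor of 3 counts per library, and very low genes by ratios of scaled counts with exact 95% intervals, which cover counting error only. Only the model fit was tested on simulated counts, in which few genes changed and only in the GS group. Most genes were called in these data, so the simulation does not cover the scaling under such conditions. The floors, ratios, sums and motif search were not simulated. Values per library are given for the TIMPs, Mmp2, Mmp9, Mmp14 and Adamts1, and for the 6 called genes that rose most and the 6 that fell most in each main comparison, with at least 1 CPM in the higher group. Mmp10 and Mmp13, which are among these, are given in part as counts summed over the libraries of a group. Genes of other lists were named from the up to 4 called genes in each direction with the largest change (5 CPM or more in the higher group), and not all of them are given. The genes and lists were chosen with earlier results of these data known. Of 122 listed symbols, 119 were matched. Alternatives were other scalings and filters, DESeq2 1.42.0, limma-voom (limma 3.58.1), only the groups compared, a replicate block, and each library left out. Upstream sequences are from RefSeq (GRCr8), which held 38 of the 49 genes.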

Additional observations from a re-analysis of the deposited data

Results flagged for a closer look

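In 11 genes both media gave a called change against GS but in opposite directions, and GS diff2 and GS diff1 differed when tested directly. They are 30.6% of the 36 tested protease and inhibitor genes, and the same rule held for 1637, or 11.4%, of all 14399 tested genes. The genes were chosen with earlier results of these data known, so nothing is read from the difference in shares. Both comparisons share the GS libraries, so the direct difference is the one to read. Mmp13 had a log2 fold change of 5.37 in GS diff2 against GS diff1, which rests on 102 counts in GS diff2 and 2 in GS diff1. The ratio of scaled counts was 48.4 (exact 95% interval 13.1 to 405, counting error only), and the log2 fold change was 8.06 without GS diff1 replicate 2 (adjusted p = 3.43e-06). Adamts8 had 4.39. Adamtsl1 had 3.20, Adamts7 1.24, Adamtsl4 1.17, Adamts4 1.04 and Mmp19 0.83, each higher in GS diff2. Adamts17 had -3.10, Adamts12 -2.37, Adamtsl3 -1.09 and Adamts6 -0.63, each lower in GS diff2. The Adamts6 change in GS diff2 against GS was lost without GS replicate 2.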

How the results depend on the processing

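Counts of called genes kept within 1.5 times of the values given in all alternatives run. With 1 library left out, 33 to 35 of the tested protease and inhibitor genes were called in GS against RCF, 27 to 28 in GS diff1 against GS, 31 to 33 in GS diff2 against GS and 31 to 32 in GS diff2 against GS diff1. Other settings gave 33 to 35, 26 to 29, 32 to 33 and 31 to 32 in the same comparisons. Of 1299 alternative log2 fold changes of the genes named by rule, 1295 kept their direction and their side of the threshold. Timp2 in GS diff2 against GS turned to 0.072 with library totals as the only scaling and, with 1 library left out, lay between -0.024 and 0.004, the higher value without GS diff2 replicate 2. Mmp9 in GS diff2 against GS diff1 lost its call with only the libraries of both groups (1.088) and without GS diff1 replicate 2 (0.697). The cause was not tested. Library totals as the only scaling put the median of all genes in GS against RCF at -0.126, beside -0.027. Replicate numbers are shared between groups, but the deviations of same-numbered libraries correlated at -0.114 to 0.128, over 0.1 in 2 of 18 pairs. No strong pairing by number was seen, and with 3 libraries a group a weak one could be missed. With a replicate block, 10166 genes and 34 of the tested protease and inhibitor genes were called in GS against RCF, beside 10262 and 34 without it. At these depths a gene under 0.127 to 0.193 CPM was at or below the floor.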
